A study of Mus musculus with 4 samples.

Results

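The genes described here are 10 regulators of the G1 phase of the cell cycle and of cell cycle exit, chosen by name: the D cyclins Ccnd1, Ccnd2 and Ccnd3, the E cyclins Ccne1 and Ccne2, the G1 kinases Cdk4 and Cdk6, the inhibitor Cdkn1b, and the retinoblastoma family genes Rb1 and Rbl1. All 10 were among the 56883 genes of the expression table, and all 10 passed the filter for testing, a mean normalized count of at least 10. They were measured by total RNA sequencing of tdTomato-positive cells, sorted by FACS from the basal telencephalon of mouse embryos at E14.5, with 2 libraries per genotype. Both groups carry Sst-Cre, in which Cre is driven by the somatostatin locus, and a tdTomato reporter that Cre switches on. Control libraries are of the genotype Sst-Cre/tdTomato, and Dnmt1 KO libraries of the genotype Sst-Cre/tdTomato/Dnmt1 loxP2, in which exons of the maintenance DNA methyltransferase gene Dnmt1 are flanked by loxP sites. Cre becomes active in postmitotic SST-positive cells, the sex of the embryos was not distinguished, and every library holds cells pooled from several embryos. The labels do not say whether the libraries of a genotype came from separate pools, so p-values measure only the spread between these libraries, which may be technical. Each SD given here rests on 2 libraries.

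D cyclins carry growth signals to the cell cycle. They bind and activate Cdk4 and Cdk6, which phosphorylate the retinoblastoma proteins and so release E2F transcription factors, and E cyclins with Cdk2 complete the passage from G1 into S phase. Cdkn1b encodes p27, an inhibitor of cyclin-dependent kinases that accumulates as neuronal progenitors of the ventricular zone stop dividing, and newborn neurons normally stay outside the cycle.

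Recovered reads per library ranged from 6970247 to 8376711, and the members drew between 54 and 2783 reads in a library. Dnmt1, the targeted gene, had 2238 and 2341 normalized counts in control and 2164 and 2210 in Dnmt1 KO libraries, a log2 fold change of -0.066 (SE 0.054, adjusted p = 0.461 by limma with the Benjamini-Hochberg method). The count covers the whole gene, including exons outside the deletion, and this difference alone does not check the labels. Why the difference was small was not tested. In cells sorted from the cortex, the study reported lower Dnmt1 transcript counts in the knockout. For the labelled cell type, 10 genes of postmitotic GABAergic interneurons were read, all of which were detected in every library. The listed radial glia and excitatory lineage genes were also detected in every library, so detection alone does not set the labelled type apart. Sst, the neuropeptide gene that drives Cre, had 5580 and 5963 normalized counts in control and 8303 and 7825 in Dnmt1 KO libraries.

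Markers of other cells differed between the genotypes too, and the sums over whole lists did not overlap. For single genes, the genotypes did not overlap in 57.4% of all genes tested. By limma, 8.99% of all genes tested were called lower and 8.3% higher, at an adjusted p below 0.05. The 8 radial glia genes summed to 10148 and 10242 normalized counts in control and 6024 and 6226 in Dnmt1 KO libraries, and 6 of the 8 were lower at an adjusted p below 0.05 (limma, Benjamini-Hochberg), while Sox2, a progenitor transcription factor, was higher. The interneuron list summed to 16576 and 16918 in control and 26661 and 26568 in Dnmt1 KO libraries, with 9 of 10 genes called higher. All 6 genes of the excitatory lineage were called lower, with sums of 2715 and 2750 against 1513 and 1320. So were all 7 blood genes tested of 9 listed, with sums of 2591 and 2400 against 576 and 590, all 5 endothelial genes, with 442 and 458 against 176 and 198, and all 5 mural and fibroblast genes tested of 7 listed, with 375 and 419 against 181 and 187. Of the smaller lists, 1 of 3 microglial genes tested (5 listed; sums 77.9 and 96.0 against 30.6 and 42.6) and none of 3 oligodendrocyte precursor genes tested (4 listed; sums 152 and 100.05 against 94.7 and 69.9; 0 at an unadjusted p below 0.05, and 0 called by edgeR or DESeq2) was called lower. The microglial gene was Csf1r, and its call was lost with DESeq2 (adjusted p = 0.100) and without control replicate 1 (0.117) or control replicate 2 (0.0685). Of 6 ganglionic eminence progenitor genes, Dlx1 and Dlx2 were called higher and none lower, with sums of 4001 and 3895 against 4696 and 4755. No listed marker was at 0 in all 4 libraries. The part of these cells in the differences of the G1 regulators was not tested. In RNA from a pool of cells, fewer cells of a type and less RNA per cell cannot be told apart.

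**Figure D1:**
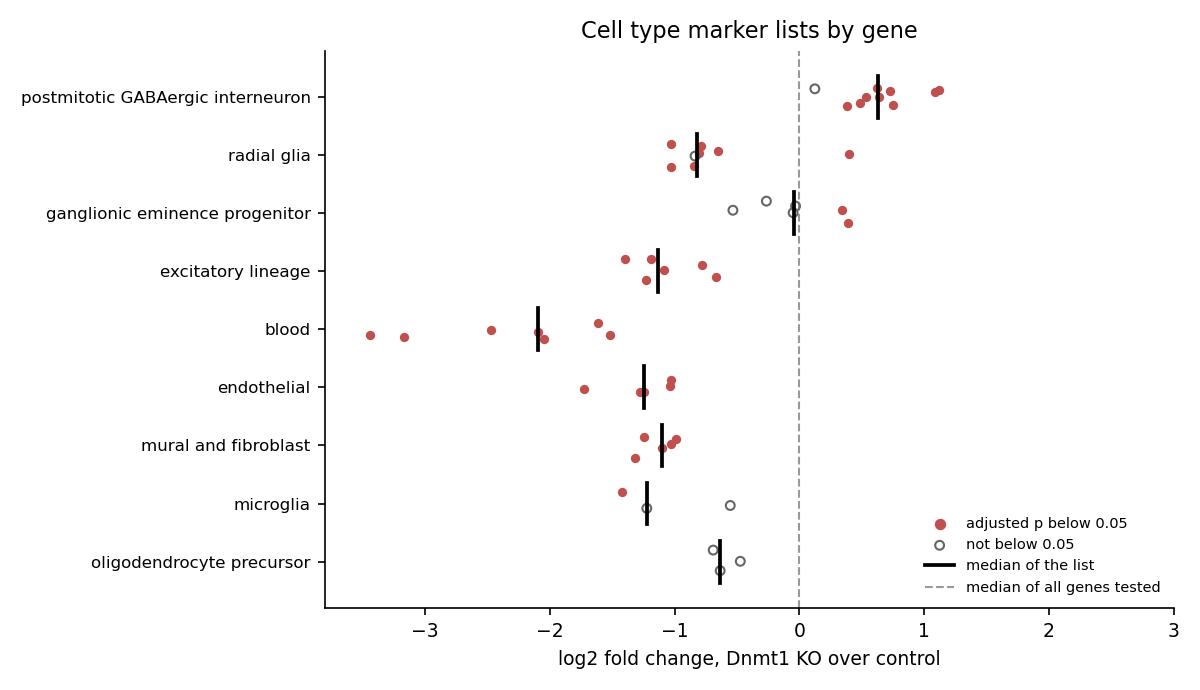
Log2 fold change (Dnmt1 KO over control, x axis) of each tested gene of 9 cell type marker lists (rows), with filled points for an adjusted p below 0.05, open points for the others, a bar at each list's median and a dashed line at the median of all genes tested. Interneuron genes lie to the right (median 0.63), and radial glia (-0.82), excitatory (-1.13) and blood genes (-2.09) lie mostly to the left.

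All 3 D cyclins and both G1 kinases were called lower in Dnmt1 KO libraries. The E cyclins, Cdkn1b and the Rb genes were not called. Rbl1 had a log2 fold change (-0.44, SE 0.16) close to that of Cdk6 (-0.51, SE 0.15), which was called. Calls are those with an adjusted p under 0.05, from limma on log2(normalized count + 1) over all 14323 genes tested. By this rule 5 of the 10 members were lower and 0 were higher. Among all genes tested, 8.99% were called lower and 8.3% higher, 17.3% in all, and the larger side of this split turned to higher with the length and GC trend removed (1485 higher and 1102 lower), with a mean of at least 50 required (1166 and 1149), and without control replicate 1 (861 and 787) or control replicate 2 (787 and 738). The members' median log2 fold change was -0.35, against -0.0033 for all genes. Control and Dnmt1 KO values did not overlap for 8 of the 10 members, as for 57.4% of all genes tested. With limma run without a trend of the prior variance over expression, 0 genes were called, although 3339 genes, 4 members among them, had an unadjusted p below 0.05. DESeq2 on the recovered reads called 3 members, the D cyclins, all lower, where it called 9.2% of all genes, 4.77% lower. The quasi-likelihood test of edgeR called 5 members, all lower, where it called 17.6% of all genes, 9.09% lower.

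**Figure D2:**
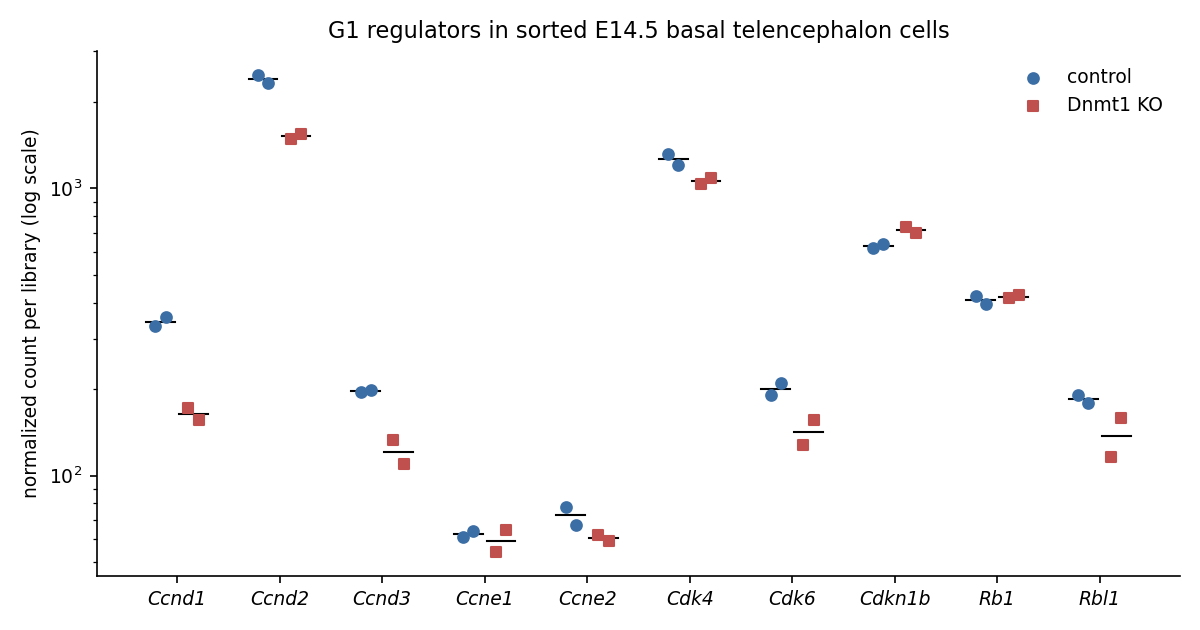
Normalized count (y axis, log scale) of the 10 G1 regulators in each control (circles) and Dnmt1 KO library (squares), with a bar at the mean of the 2 libraries. The points of the D cyclins, Cdk4 and Cdk6 lie lower in Dnmt1 KO, those of Cdkn1b lie higher, and those of Ccne1 and Rb1 overlap.

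Ccnd1, which encodes cyclin D1, a cyclin induced by mitogens, had the largest log2 fold change among the members. It lies on the reverse strand at chr7:144483668-144493662 (GRCm39, as for all gene positions here) and had 331 and 355 normalized counts in control and 172 and 156 in Dnmt1 KO libraries. Both Dnmt1 KO values were far under both control values. The means were 343 ± 17.1 and 164 ± 10.9 (SD, n = 2), a log2 fold change of -1.06 (SE 0.12, 95% interval -1.32 to -0.81, adjusted p = 2.02e-05 by limma). Leaving out any 1 library kept the value between -1.13 and -0.99.

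Ccnd2, the D cyclin with the highest level here, is encoded on the reverse strand at chr6:127102125-127129156. It had 2490 and 2328 normalized counts in control and 1488 and 1546 in Dnmt1 KO libraries, again without overlap. The means of 2409 ± 115 and 1517 ± 40.7 (SD, n = 2) gave a log2 fold change of -0.67 (SE 0.059, adjusted p = 1.98e-06 by limma). Ccnd3, the third D cyclin, lies on the forward strand at chr17:47815767-47910624. Its normalized counts were 196 and 198 in control and 133 and 109 in Dnmt1 KO libraries, so that the control libraries were close together and the Dnmt1 KO libraries further apart. The log2 fold change of Ccnd3 was -0.70 (SE 0.15, 95% interval -1.02 to -0.38, adjusted p = 0.00437 by limma), and its values without 1 library ran from -0.84 to -0.56, the highest adjusted p among these being 0.0392. The calls of the 3 D cyclins held under 15 of 16 alternative settings, and only limma without the variance trend ended them, with adjusted p of 0.0592 for Ccnd1, 0.0715 for Ccnd2 and 0.0946 for Ccnd3.

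Per kb of transcript, the scale on which levels of different genes are compared here, Ccnd2 had 381 ± 18.2, Ccnd3 93.7 ± 0.699 and Ccnd1 88.9 ± 4.43 normalized counts in control libraries (SD, n = 2). In Dnmt1 KO libraries these levels were 240 ± 6.43, 57.7 ± 8.04 and 42.4 ± 2.82. Summed over the 3 genes, the D cyclins had 572 and 554 normalized counts per kb in control and 343 and 337 in Dnmt1 KO libraries, a ratio of means of 0.603. Ccnd1 made up 15.0% and 16.6% of this sum in control and 13.0% and 12.0% in Dnmt1 KO libraries, a difference of -3.30 percentage points, whereas Ccnd2 held 68.7% and 66.4% against 68.6% and 72.5%. The Ccnd1 shares did not overlap (two-sided exact permutation p = 0.333, the smallest that 2 libraries against 2 allow), and those of Ccnd2 and Ccnd3 did (exact permutation p = 0.667 and 1). On the log2 scale, the change of Ccnd1 exceeded that of Ccnd2 by -0.40 (SE 0.13) and that of Ccnd3 by -0.36 (SE 0.19), with the genes taken as independent. Ccnd2 and Ccnd3 differed by 0.037 (SE 0.16).

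**Figure D3:**
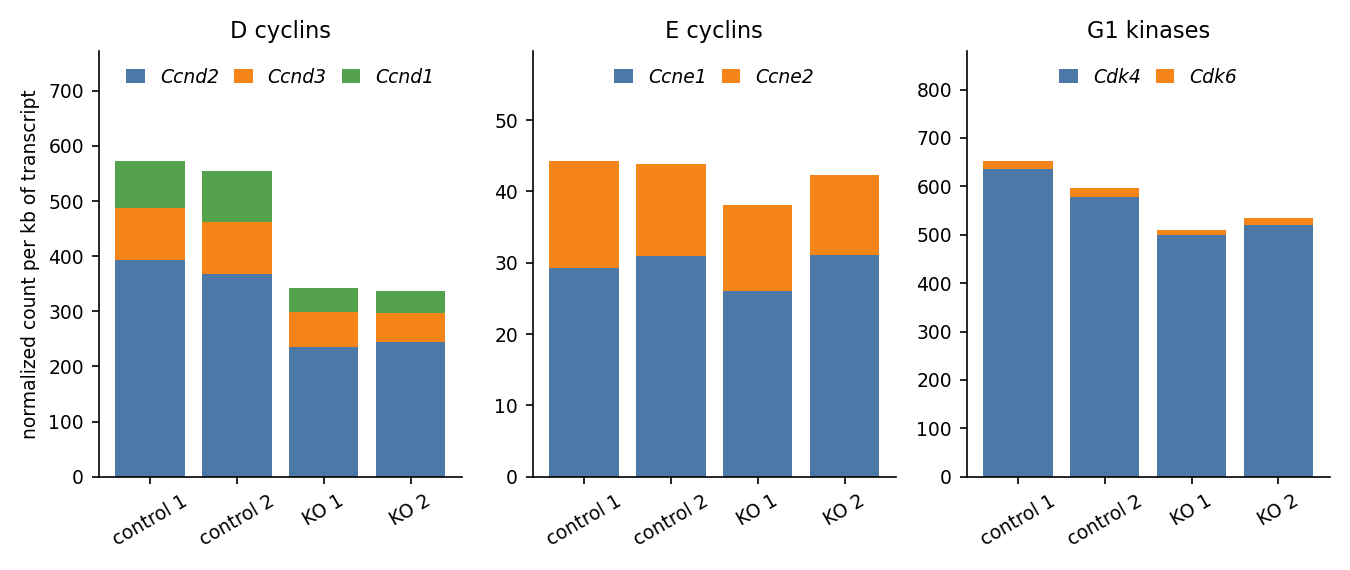
Normalized count per kb of transcript (y axis) in each library, stacked by gene for the D cyclins (left), the E cyclins (middle) and the G1 kinases (right), each panel with its own scale from 0. The D cyclin stack reaches 572 and 554 in control and 343 and 337 in Dnmt1 KO libraries, the E cyclin stack differs little (44.2 and 43.9 against 38.04 and 42.4), and Cdk4 makes up nearly all of the kinase stack.

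The D cyclins were also set against lists of other genes in the same library. Per 1000 normalized counts of 23 G2 and M phase genes, Ccnd1 had 32.1 and 35.3 counts in control and 25.0 and 22.1 in Dnmt1 KO libraries, a ratio of means of 0.698. For Ccnd2 the ratio was 0.920, without overlap, and for Ccnd3 0.900, with overlap. Per 1000 normalized counts of the S phase list, the ratios were 0.641 for Ccnd1, 0.844 for Ccnd2 and 0.826 for Ccnd3, all without overlap. Set against the radial glia list, Ccnd1 was at a ratio of 0.796, and Ccnd2 and Ccnd3 were at 1.05 and 1.03. Relative to these 3 lists, Ccnd1 was lower in Dnmt1 KO libraries. Ccnd2 was lower relative to both cell cycle lists and slightly higher relative to the radial glia list, and Ccnd3 was lower without overlap relative to the S phase list alone. Ratios to the other marker lists were not computed. The fitted fold of Ccnd1 was 0.479. Lower ratios of sums were those of the mural and fibroblast (0.464), microglia (0.421), endothelial (0.415) and blood lists (0.234). The excitatory (0.518), oligodendrocyte precursor (0.653), ganglionic eminence (1.20) and interneuron lists (1.59) were higher. The radial glia sum itself was 0.601 times the control value, the G2 and M phase sum 0.684 times, and the D cyclin sum of normalized counts 0.611 times.

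Neither E cyclin passed the test. Ccne1, which lies on the reverse strand at chr7:37797404-37808264, had 60.9 and 64.3 normalized counts in control and 54.3 and 64.5 in Dnmt1 KO libraries, and the groups overlapped. Its log2 fold change was -0.080 (SE 0.23, 95% interval -0.56 to 0.40, adjusted p = 0.856 by limma). The sign of Ccne1 turned under quantile normalization (0.029), with a length and GC trend removed (0.027) and without Dnmt1 KO replicate 1 (0.043). Ccne2, on the forward strand at chr4:11190303-11204947, had 77.9 and 67.4 normalized counts in control and 62.1 and 59.0 in Dnmt1 KO libraries, without overlap. Its log2 fold change of -0.25 (SE 0.22, 95% interval -0.71 to 0.21, adjusted p = 0.475 by limma) was close to 1 standard error, and it was -0.15 without control replicate 1. At these low counts the intervals reach down to a change of the size seen for Ccnd2 only in Ccne2. The changes of Ccnd1 and of Ccne1 differed by -0.98 (SE 0.26) and those of Ccnd2 and Ccne1 by -0.59 (SE 0.23) on the log2 scale, with the genes taken as independent.

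Both kinases that pair with D cyclins were lower in Dnmt1 KO libraries. Cdk4, on the forward strand at chr10:126895180-126903789, had 1323 and 1203 normalized counts in control and 1039 and 1084 in Dnmt1 KO libraries. The groups did not overlap, but the gap between them was about as wide as the gap between the control libraries. The log2 fold change was -0.25 (SE 0.069, adjusted p = 0.0217 by limma). The call was lost with DESeq2 (adjusted p = 0.0767), with the length and GC trend removed (log2 fold change -0.14, adjusted p = 0.180), and without control replicate 1 (-0.18, adjusted p = 0.159) or Dnmt1 KO replicate 1 (-0.22, adjusted p = 0.0943). Cdk6, the paralog of Cdk4, lies on the forward strand at chr5:3391485-3581008 and had 192 and 210 normalized counts in control and 127 and 156 in Dnmt1 KO libraries, also without overlap. Its log2 fold change was -0.51 (SE 0.15, adjusted p = 0.0274 by limma). That call was lost with DESeq2 (adjusted p = 0.171), under quantile normalization (0.0546), and without control replicate 1 (0.0670), control replicate 2 (0.173) or Dnmt1 KO replicate 1 (0.174).

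Per kb of transcript, Cdk4 was the most abundant member in both genotypes, with 607 ± 40.8 normalized counts in control and 510 ± 15.4 in Dnmt1 KO libraries (SD, n = 2). Cdk6 had 17.2 ± 1.14 and 12.2 ± 1.76 on the same scale. Cdk4 therefore made up 97.2% of the summed kinase level in control and 97.7% in Dnmt1 KO libraries. Set against the G2 and M phase list, Cdk4 was at a ratio of 1.23 between the genotypes and Cdk6 at 1.03, with overlap. Against the S phase list, Cdk4 was at 1.13 and Cdk6 at 0.946, again with overlap for Cdk6.

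**Figure D4:**
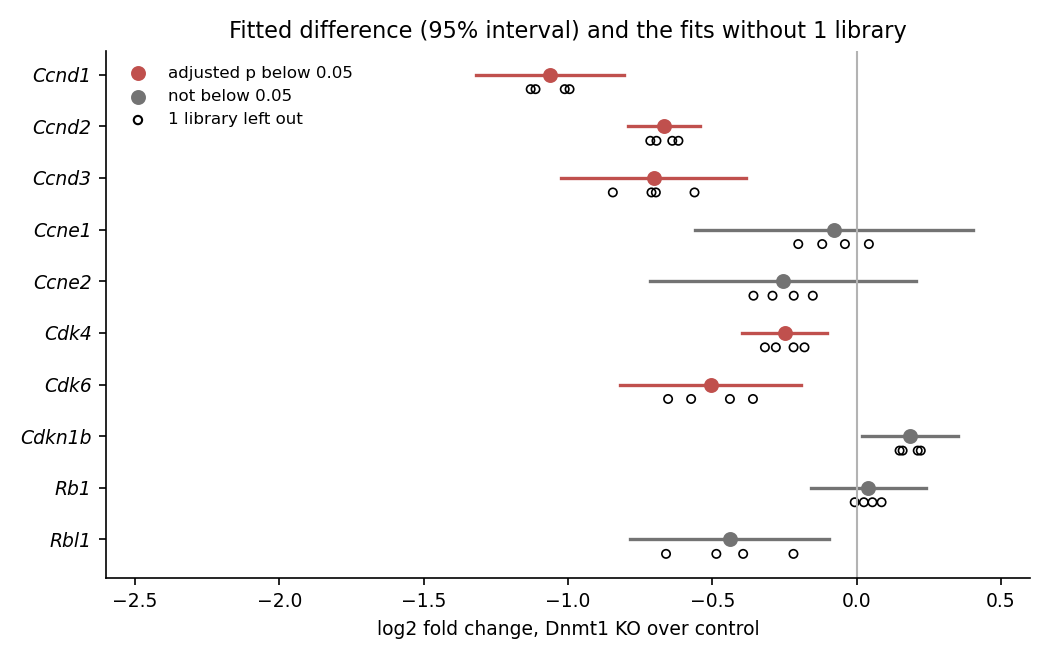
Log2 fold change (Dnmt1 KO over control, x axis) of each G1 regulator, with its 95% interval (line) from limma, in red where the adjusted p is below 0.05, and below it the 4 values with 1 library left out (open circles). With 1 library left out, the D cyclins lie between -1.13 and -0.56, those of Cdkn1b lie above 0, and those of Ccne1 and Rb1 fall on both sides of 0.

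The promoter sequences of 3 members are shown because their windows carry letters known to be bound by cell cycle or growth factors, in a called gene, in the inhibitor and in an Rb family gene. RefSeq promoter windows of GRCm38.p6, 250 bases before the annotated start, were found for 6 of the 10 members (Ccnd3 with a pair of starts, Ccne1, Cdk4, Cdk6, Cdkn1b and Rbl1), and Ccnd1, Ccnd2, Ccne2 and Rb1 had no entry. Capitals mark 6 motifs searched on both strands: E2F (TTTGGCGC, TTTCCCGC, TTTGCCGC or TTTCGCGC), CRE (TGACGTCA), SP1 (GGGCGG), CHR (TTTGAA), NF-Y (CCAAT) and E-box (CACGTG). The windows, 5′ to 3′ on the gene's strand, are chr10:127063285-127063534 for Cdk4, chr6:134920151-134920400 for Cdkn1b and, on the reverse strand, chr2:157204535-157204784 for Rbl1.
Cdk4: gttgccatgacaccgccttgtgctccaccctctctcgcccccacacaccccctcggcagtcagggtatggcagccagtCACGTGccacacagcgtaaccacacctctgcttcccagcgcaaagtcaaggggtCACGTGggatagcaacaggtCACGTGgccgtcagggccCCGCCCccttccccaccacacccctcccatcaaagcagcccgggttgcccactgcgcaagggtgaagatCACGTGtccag
Cdkn1b: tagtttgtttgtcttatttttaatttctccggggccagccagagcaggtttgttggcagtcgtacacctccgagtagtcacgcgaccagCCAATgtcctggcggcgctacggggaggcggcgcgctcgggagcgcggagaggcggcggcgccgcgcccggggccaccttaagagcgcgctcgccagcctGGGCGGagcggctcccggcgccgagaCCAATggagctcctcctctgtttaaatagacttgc
Rbl1: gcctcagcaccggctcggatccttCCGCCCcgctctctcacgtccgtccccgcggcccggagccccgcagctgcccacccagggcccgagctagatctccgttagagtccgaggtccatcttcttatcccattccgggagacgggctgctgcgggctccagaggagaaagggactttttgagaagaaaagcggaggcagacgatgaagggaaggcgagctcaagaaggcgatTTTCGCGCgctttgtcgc

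The Cdk4 window held 4 E-boxes, the letters bound by Myc with Max among other factors, with their first bases 172, 118, 98 and 11 bases before the start. Of 32851 promoter windows of this length, 6.02% held an E-box. Cdk6 held 1, starting 220 bases before its start. Rbl1 held the only E2F match among the members, starting 18 bases before the start, and E2F letters were in 1.86% of all windows. Cdkn1b held a pair of CCAAT boxes, 161 and 35 bases before the start, and 1 of the Ccnd3 windows held 1. CCAAT letters were in 33.9% of all windows. SP1 letters were in windows of Ccnd3, Ccne1, Cdk4, Cdkn1b and Rbl1 and in 32.7% of all windows. No member window held CRE (1.55% of all windows) or CHR letters (15.99%). A match describes the sequence and is not a measured binding site.

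Cdkn1b was the only member besides Rb1 with a higher mean in Dnmt1 KO libraries. It lies on the forward strand at chr6:134897364-134902476 and had 619 and 642 normalized counts in control and 736 and 699 in Dnmt1 KO libraries, without overlap. The means were 631 ± 16.2 and 718 ± 25.9 (SD, n = 2), a log2 fold change of 0.19 (SE 0.078, 95% interval 0.019 to 0.35). The adjusted p of 0.122 (limma, Benjamini-Hochberg over all genes) did not pass the threshold, and it stayed between 0.101 and 0.419 under the 16 alternatives. Per summed D cyclin normalized count, Cdkn1b had 0.205 and 0.223 counts in control and 0.410 and 0.386 in Dnmt1 KO libraries. The groups were well apart in this ratio, which takes in the lower D cyclin levels. Against the G2 and M phase list, Cdkn1b was at a ratio of 1.66 between the genotypes. This ratio takes in the lower sum of that list, at 0.684 times the control value. The fitted fold of Cdkn1b itself was 1.14. All members but the D cyclins had a higher mean ratio to this list in Dnmt1 KO libraries. Among them were Rb1, which was not called, and Cdk4, which was called lower and was at 1.23. Against the S phase list, Cdk6 (0.946) and Rbl1 (0.996) were slightly lower, both with overlap. Ccne1, Ccne2, Cdk4 (1.13), Cdkn1b (1.53) and Rb1 were higher there. The interneuron list, whose sum was 1.59 times the control value, moved in the same direction as Cdkn1b and further. The part of a different share of interneurons in the level of Cdkn1b was not tested.

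Rb1, the retinoblastoma gene, lies on the reverse strand at chr14:73421113-73563507 and had 421 and 395 normalized counts in control and 415 and 424 in Dnmt1 KO libraries. The groups overlapped, and the log2 fold change was 0.040 (SE 0.094, 95% interval -0.16 to 0.24, adjusted p = 0.821 by limma). Its sign turned without control replicate 2 (-0.0065). Rbl1, which encodes the related pocket protein p107, lies on the reverse strand at chr2:156987813-157046475. It had 191 and 179 normalized counts in control and 116 and 158 in Dnmt1 KO libraries, without overlap but with the Dnmt1 KO libraries far apart. The log2 fold change of Rbl1 was -0.44 (SE 0.16, 95% interval -0.78 to -0.095, adjusted p = 0.0761 by limma). It passed the threshold without Dnmt1 KO replicate 2 (-0.66, adjusted p = 0.00657) and with replicate number as a block (adjusted p = 0.0300), and without Dnmt1 KO replicate 1 it was -0.22.

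The order of levels per kb in control libraries was Cdk4, Ccnd2, Cdkn1b, Ccnd3, Ccnd1, Rb1, Rbl1, Ccne1, Cdk6 and Ccne2, with no overlap between the ranges of neighbours. This order, like the D cyclin shares, rests on the length of the transcript with the longest coding sequence of each gene. The ranges over libraries do not cover an error in that length. In Dnmt1 KO libraries Rb1 stood next after Cdkn1b, above Ccnd3 and Ccnd1, and Ccne1 stood above Rbl1. Rb1 itself was at 81.5 ± 3.72 and 83.7 ± 1.22 normalized counts per kb (SD, n = 2), so that its place followed from the lower D cyclins. In Dnmt1 KO libraries the ranges of Ccne1 and Rbl1 overlapped, as did those of Cdk6 and Ccne2. Cdkn1b was at 139 ± 3.56 and 158 ± 5.68, below Cdk4 and Ccnd2 and above the other members in both genotypes.

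Several members share bases with other genes, and although the library kit was a stranded one, whether reads were counted by strand is not given in the sources used here. On the opposite strand, Ccnd1 overlaps LTO1 (2315 bases), Ccnd3 overlaps Bysl (369 bases), Ccne1 overlaps 1600014C10Rik (2093 bases), Ccne2 overlaps Ints8 (8127 bases), Cdk4 overlaps Marchf9 (996 bases) and Tspan31 (646 bases), and Rb1 overlaps Rcbtb2 (24226 bases) and Lpar6 (5400 bases). Of these, Marchf9 alone was called, and higher (415 and 338 against 479 and 477 normalized counts, log2 fold change 0.35, adjusted p = 0.0318 by limma), a direction opposite to that of Cdk4. That call was lost with DESeq2 (adjusted p = 0.148), under quantile normalization (0.0509) and without control replicate 2 (log2 fold change 0.20, adjusted p = 0.262 by limma). Tspan31, with 204 and 184 against 148 and 173, was not called and had a log2 fold change of -0.28 (adjusted p = 0.207 by limma), the same direction as Cdk4. LTO1 had 151 and 150 normalized counts in control and 178 and 158 in Dnmt1 KO libraries, a direction opposite to that of Ccnd1. Some of these neighbours had more counts than the member they overlap: Ints8 (449 and 434 against 393 and 400) than Ccne2, Bysl (311 and 321 against 313 and 351) than Ccnd3, and Rcbtb2 (486 and 421 against 434 and 390) than Rb1 in 3 of 4 libraries. These overlaps are of whole gene spans, introns included, and bases shared by exons were not counted. If strand was not used in counting, the values of members that share exon bases with these genes are uncertain. Which members these are was not determined. On the same strand, where counting by strand would not separate reads, Ccnd3 overlaps the noncoding genes Gm64599 and Gm64600. Rb1 overlaps the noncoding genes Gm17233, Gm62650 and Mir687 on its strand. Of these, Gm17233 had at most 2.19 normalized counts in any library and Mir687 had 0, and the others had no values. A pseudogene, Ccnd3-ps, had at most 2.68 normalized counts in any library.

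Other genes of the same pathway were read from 9 lists of 102 genes, of which 97 were tested. In all, 44 were called lower and 3 higher in Dnmt1 KO libraries, with a median log2 fold change of -0.38. Among all genes tested, 8.99% were called lower and 8.3% higher. Of the other inhibitors of cyclin-dependent kinases, 4 of 6 were tested and 0 were called by limma, edgeR or DESeq2 (median -0.011, 1 gene at an unadjusted p below 0.05 in limma). Cdkn1c, which encodes p57, had 1001 and 1034 normalized counts in control and 913 and 983 in Dnmt1 KO libraries (log2 fold change -0.10, adjusted p = 0.362 by limma). Cdkn1a, which encodes p21, had 31.3 and 13.3 against 30.6 and 38.2 normalized counts, and the groups overlapped (log2 fold change 0.71, adjusted p = 0.250 by limma). Its value depended on 1 control library, at 1.30 without control replicate 1 (adjusted p = 0.0723) and 0.12 without control replicate 2 (adjusted p = 0.890 by limma).

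Of Cdk2, the A cyclins and the activating kinase genes, 2 of 6 tested (7 listed) were lower and none higher (median -0.29), beside 8.99% lower of all genes tested. Cdk2, the kinase of E and A cyclins, had 89.5 and 101 normalized counts in control and 46.4 and 57.9 in Dnmt1 KO libraries (log2 fold change -0.86, SE 0.22, adjusted p = 0.0119 by limma). Its partner Ccna2, the cyclin of S phase and G2, had 370 and 299 against 239 and 188 (-0.65, SE 0.14, adjusted p = 0.00432 by limma). The Cdk2 call was lost with DESeq2 (adjusted p = 0.0883) and without control replicate 2 (0.115), and the Ccna2 call without control replicate 1 (0.0718).

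All 10 genes of the E2F and DP list had a log2 fold change under 0, from -1.03 to -0.0079, and 3 of 10 were called (median -0.31). The median of all genes tested was -0.0033, and 8.99% of them were called lower. E2f7, a repressor of the family, had 145 and 164 normalized counts in control and 78.9 and 92.9 in Dnmt1 KO libraries (log2 fold change -0.84, SE 0.17, adjusted p = 0.00305 by limma). E2f3, an activator, had 160 and 169 against 126 and 99.4 (-0.55, SE 0.16, adjusted p = 0.0289 by limma). The third, E2f1, also an activator, had 108 and 154 against 59.2 and 66.6 (-1.03, adjusted p = 0.00286 by limma), and is named after its values were seen. The calls of E2f7 and E2f1 were lost without control replicate 2 (adjusted p = 0.0511 and 0.0757). That of E2f3 was lost with DESeq2 (0.186), quantile normalization (0.0609) or the length and GC trend removed (0.0572), and without control replicate 1 (0.0918), control replicate 2 (0.156) or Dnmt1 KO replicate 2 (0.193).

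Rbl2, which encodes p130, the pocket protein of resting cells, had 258 and 273 normalized counts in control and 279 and 271 in Dnmt1 KO libraries (log2 fold change 0.053, adjusted p = 0.797 by limma). None of the 8 genes of the Rbl2 and MuvB list was called by limma, edgeR or DESeq2 (median 0.050, 2 genes at an unadjusted p below 0.05 in limma). The same holds for the 3 Myc family genes (median 0.051, 0 genes at an unadjusted p below 0.05 in limma). Where 8.3% of all genes tested were called higher, 2 of 10 genes that serve the degradation of cyclins and Cdkn1b were higher and none lower (median -0.089). These were Cul4b, a ubiquitin ligase scaffold, with 395 and 374 against 481 and 494 normalized counts (log2 fold change 0.34, adjusted p = 0.0170 by limma), and Ambra1, the ligase adaptor that directs D cyclins to degradation, with 636 and 616 against 744 and 747 (0.25, adjusted p = 0.0336 by limma). With DESeq2 both calls were lost (adjusted p = 0.108 and 0.166). The Cul4b call was also lost with the length and GC trend removed (0.239) and without control replicate 2 (0.0902) or Dnmt1 KO replicate 2 (0.0730), and that of Ambra1 under quantile normalization (0.0782) and without any 1 library (0.0654 to 0.129).

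Antiproliferative genes moved in both directions, with 3 of 8 tested (9 listed) lower and 1 higher (median -0.22), beside 8.99% lower and 8.3% higher of all genes tested. Btg2, a marker of neurogenic divisions, had 180 and 172 normalized counts in control and 79.9 and 90.7 in Dnmt1 KO libraries (log2 fold change -1.04, SE 0.16, adjusted p = 0.000377 by limma). Ndn, which encodes necdin, a growth suppressor of neurons, had 3336 and 3602 against 2013 and 1847 (-0.85, SE 0.059, adjusted p = 1.75e-07 by limma). Gadd45g, a stress and differentiation gene, was at -0.74 (adjusted p = 0.00345 by limma). Btg1, a relative of Btg2, rose instead, from 631 and 639 to 798 and 826 normalized counts (0.35, SE 0.075, adjusted p = 0.00427 by limma). The Gadd45g call was lost without control replicate 2 (adjusted p = 0.0520).

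Most genes that act after G1 in the cycle were lower in Dnmt1 KO libraries. Among all genes tested, 8.99% were called lower and 8.3% higher. Of 25 S phase genes tested (26 listed), 15 were lower and none higher (median -0.47). The helicase subunits Mcm3 (log2 fold change -0.71) and Mcm5 (-0.66), the ribonucleotide reductase subunit Rrm2 (-0.69) and the histone chaperone subunit Chaf1a (-0.65) had the largest called changes among those with a mean of at least 100. Of 23 G2 and M phase genes, 21 were lower and none higher (median -0.66), and among those with a mean of at least 100 the changes were largest for the mitotic kinases Aurkb (-1.26) and Aurka (-0.88), the mitotic exit activator Cdc20 (-0.83) and the kinase Plk1 (-0.82). Mki67, the proliferation antigen, had 2553 and 2500 normalized counts in control and 1826 and 1755 in Dnmt1 KO libraries (-0.50, adjusted p = 1.58e-05 by limma). Among the G1 regulators, the medians of these lists were passed by Ccnd1, Ccnd2, Ccnd3 and, for S phase, Cdk6. With DESeq2, 8 S phase and 14 G2 and M phase genes were called, beside 9.2% of all genes tested, 4.77% lower. The Aurka call was lost without control replicate 2 (log2 fold change -0.75). The call count of the 9 lists fell from 47 to 31 without control replicate 1 and to 28 without control replicate 2.

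**Figure D5:**
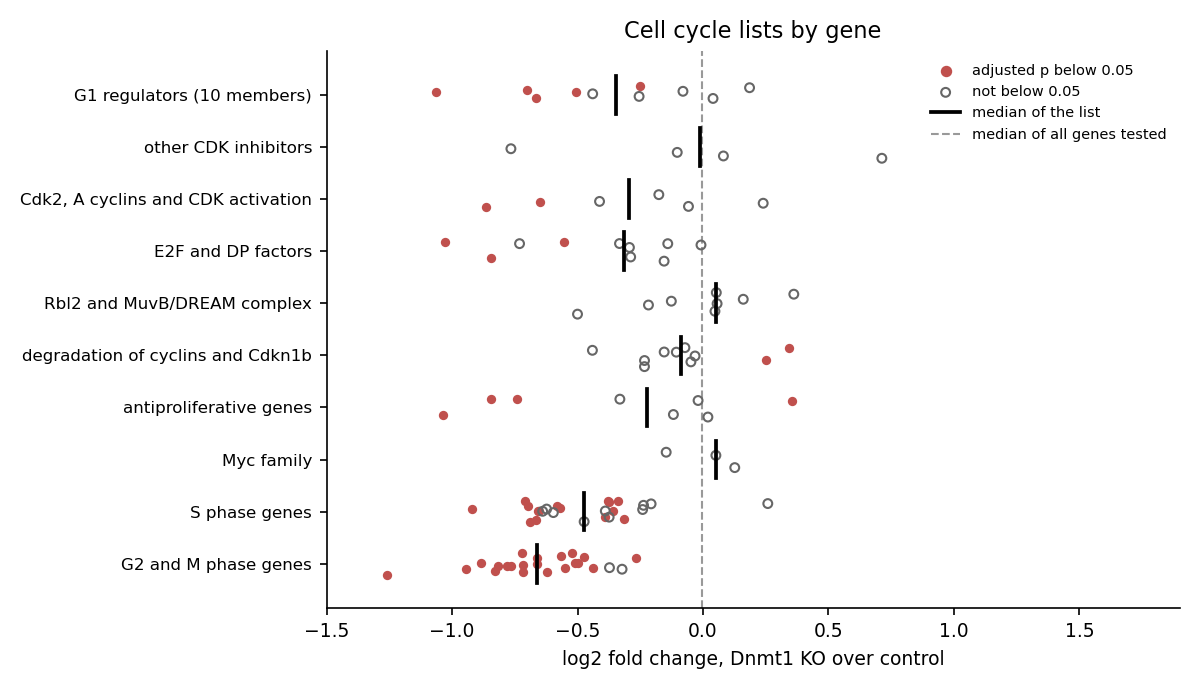
Log2 fold change (Dnmt1 KO over control, x axis) of each tested gene of the G1 regulators and of 9 further cell cycle lists (rows), with filled points for an adjusted p below 0.05, open points for the others, a bar at each list's median and a dashed line at the median of all genes tested. S phase (median -0.47) and G2 and M phase genes (-0.66) lie mostly left of the dashed line, while the inhibitors, the Rbl2 list and the Myc family lie around it.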

How the data were processed

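Total RNA of FACS-sorted cells was sequenced in 4 libraries, 2 per genotype, grouped by the genotype in the labels. Before deposition, the authors ran the nf-core/rnaseq pipeline (Trim Galore for trimming, STAR for alignment to GRCm39, Salmon for quantification), and the submitters' notes name R 4.3.2 and DESeq2 1.32.0. Values of the deposited signal are normalized counts, that is, read numbers over the library's size factor (100% of 89965 values above 0 came out whole to within 0.0001 of a read). The annotation version and the strand setting are not given in the sources used here.

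The filter on low values (mean of 10 normalized counts) left 14323 genes. These were fitted by limma 3.58.1 under R 4.3.3, with genotype as term and a variance trend, after taking log2 with a pseudocount of 1. Benjamini-Hochberg adjustment ran over all of them. This scale understates the change of low genes. DESeq2 1.42.0, edgeR 4.0.16 (2528 genes called) and limma-voom were run on the recovered reads as alternatives. Levels between genes were compared per kb of the transcript with the longest coding sequence of each gene (GENCODE, GRCm39). The limma, DESeq2 and edgeR fits were tested on simulated counts. The members and lists were chosen with earlier results of these data known. Named genes are all members and, of each other list, at most 4 called genes with a mean of at least 100 and the largest change, plus Rbl2, Cdk2, Cdkn1a, Cdkn1c, Mki67 and Dnmt1. DNA methylation and single-cell data of the study were not analysed here.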

Additional observations from a re-analysis of the deposited data

How the results depend on the processing

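The counts of calls over all genes, the members and the 9 pathway lists together, and the log2 fold changes of the genes named from the rule and of 8 others named outside it after their values were seen, were recomputed under 16 alternatives (15 for Cdkn1a and Csf1r, which a stricter filter removes). Marker list counts and ratios to lists were not recomputed. The count of all genes called, 2476, became 0 with limma without the variance trend (3339 genes at an unadjusted p below 0.05) and 1317 with DESeq2, and ranged from 1525 to 2205 with 1 library left out. The members called, 5, became 0 without the trend, 3 with DESeq2 and 3 to 6 with 1 library left out. The calls in the 9 further pathway lists, 47, became 0 without the trend (55 at an unadjusted p below 0.05), 29 with DESeq2 and 28 to 41 with 1 library left out. The difference in the Ccnd1 share of the D cyclins, -3.30 points, ranged from -4.12 to -2.49 with 1 library left out, an alternative chosen after seeing the data. The cause of these shifts was not tested, other than that a left-out library leaves fewer samples and a lone library is then assumed to vary like the other group.

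Of 654 values for 41 named genes, 577 kept direction and call, 69 lost the call, 2 gained it and 6 changed sign. The 6 were Ccne1 under quantile normalization (0.029), with the length and GC trend removed (0.027) and without Dnmt1 KO replicate 1 (0.043), Rb1 without control replicate 2 (-0.0065), and Cdkn1c (0.0020) and Dnmt1 (0.018) with the length and GC trend removed. With 1 library left out, Ccne1 ranged from -0.20 to 0.043 and Rb1 from -0.0065 to 0.087. None of these values was called. The replicate numbers did not pair the libraries (correlation of deviations -0.085 with 2 pairs). With replicate number as a block, 2957 genes, 6 members and 51 list genes were called, and Rbl1 was the only named gene whose call changed. The E cyclins drew 54 to 87 reads in a library, which limits what could be detected for them.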
